A study of Mus musculus with 12 samples.

Results

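A set of 8 liver genes was compared across mice of 4 genotypes, namely Glul, Rhbg, Slc1a2, Oat, Slc13a3, Lhpp, Gulo and Lect2. They were chosen by symbol, as hepatocyte genes of nitrogen handling around the central vein with Gulo and Lect2 added. The choice was made with earlier results of these data known, although the rule itself uses no measured value. The count tables hold 22609 genes, all 8 are among them, and all 8 were among the 13684 genes tested. RNA was sequenced from whole liver of 12 untreated adult mice, 3 per genotype. AEG1_MYC mice carried both the Alb/AEG-1 and the Alb/c-Myc transgene, MYC mice carried Alb/c-Myc alone, AEG1 mice carried Alb/AEG-1 alone, and WT mice carried neither. All 4 genotypes are offspring of crosses between mice heterozygous for 1 transgene each. The albumin promoter of both transgenes is active in hepatocytes, so other liver cells carry the transgenes without that drive. Strain, sex, exact age, litter and batch are not given in the sources used here. AEG-1 is encoded in mice by Mtdh, and the transcription factor c-Myc drives growth and division.

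The liver lobule is arranged between portal veins, where blood enters, and the central vein, where it leaves. Hepatocytes along the portal side turn ammonium into urea, and a thin sheath of hepatocytes around the central vein captures what is left by joining it to glutamate, which yields glutamine. That sheath is set up by Wnt ligands from central vein endothelium acting through beta-catenin, and Glul is its classical marker. Rhbg lets ammonium across the membrane, Slc1a2 brings glutamate in, and Oat makes glutamate from ornithine, so these genes lie along a single path to glutamine. Slc13a3 carries dicarboxylates such as alpha-ketoglutarate and succinate. Lhpp is a phosphatase that removes phosphate from histidine and lysine, Gulo catalyses the last step of vitamin C synthesis in mice, and Lect2 is a protein that hepatocytes secrete into blood.

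Promoter windows, from 250 bases before to 50 bases after the gene start, were held by RefSeq's GRCm38.p6 table for 5 of the 8 genes, Glul, Slc1a2, Oat, Slc13a3 and Lect2. Rhbg, Lhpp and Gulo had no entry there. Each window was searched on both strands for CTTTGAT, the letters bound by the TCF/LEF partners of beta-catenin, for CACGTG, the E-box bound by MYC with MAX, and for CAAAGTC, the core of HNF4A sites. The TCF/LEF letters read on the other strand share CAAAG with the HNF4A core. Of 32851 mouse promoter windows in that table, 3.73% held CTTTGAT, 7.15% held CACGTG and 4.44% held CAAAGTC. The 3 windows with a match are shown because they are the places where these letters lie beside genes of the set, with the matched letters in capitals. Slc1a2 held the TCF/LEF letters on the other strand starting 207 bases before the start, at chr2:102706188-102706487 on the plus strand, a start inside the gene rather than its most upstream one. Lect2 held them on the other strand starting 32 bases before the start, at chr13:56548489-56548788 on the minus strand. Slc13a3 held the E-box starting 154 bases before the start, at chr2:165473148-165473447 on the minus strand. The windows of Glul and Oat held none of the 3 motifs.
Slc1a2: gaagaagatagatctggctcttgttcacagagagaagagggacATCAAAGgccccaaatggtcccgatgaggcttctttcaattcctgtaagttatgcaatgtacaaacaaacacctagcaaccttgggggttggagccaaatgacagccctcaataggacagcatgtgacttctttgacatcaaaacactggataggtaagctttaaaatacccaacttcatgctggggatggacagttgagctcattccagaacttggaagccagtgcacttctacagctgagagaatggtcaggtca
Lect2: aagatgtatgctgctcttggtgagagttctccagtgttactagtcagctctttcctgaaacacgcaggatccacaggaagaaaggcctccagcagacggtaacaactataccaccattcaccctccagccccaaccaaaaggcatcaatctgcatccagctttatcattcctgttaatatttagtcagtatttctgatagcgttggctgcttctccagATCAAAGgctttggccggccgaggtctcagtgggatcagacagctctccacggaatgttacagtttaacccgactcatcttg
Slc13a3: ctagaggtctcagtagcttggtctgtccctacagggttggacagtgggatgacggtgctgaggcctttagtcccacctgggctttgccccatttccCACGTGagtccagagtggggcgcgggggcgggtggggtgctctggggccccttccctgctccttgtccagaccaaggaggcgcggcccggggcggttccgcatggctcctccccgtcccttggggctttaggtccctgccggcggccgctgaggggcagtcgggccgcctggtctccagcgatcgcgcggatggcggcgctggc
A match is a description of letters in these windows, and binding was not measured.

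Reads in genes numbered 21931197 to 40552316 per library, and levels are given as CPM, the reads of a gene after scaling each library to a common total. Myc stood at 73.0, 165 and 58.4 CPM in AEG1_MYC livers and at 23.4, 30.5 and 53.8 CPM in MYC livers, against at most 4.59 CPM in AEG1 livers and 4.73 CPM in WT livers. Mtdh lay between 89.0 and 112 CPM in all 12 libraries. It is not given whether reads of the AEG-1 transgene would count as Mtdh, and the AEG1 label was therefore not checked by expression. AEG1_MYC replicate 2 stood farthest apart from the other libraries. Its median root mean square log2 difference to the other libraries was 1.08, against 0.804 and 0.630 for AEG1_MYC replicates 1 and 3 and 0.576 to 0.640 for the other 9 libraries. AEG1_MYC replicate 1 thus also lay above those 9. Log2 fold changes of the 8 genes in AEG1_MYC livers are given with and without AEG1_MYC replicate 2. The summed hepatocyte markers were 54438 CPM in it, against 90768 and 94438 CPM in the other two AEG1_MYC livers, 88614 to 107500 CPM in MYC livers, 100858 to 113181 CPM in AEG1 livers and 127422 to 135923 CPM in WT livers.

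Every one of the 8 genes was higher on average in AEG1_MYC livers than in the other genotypes, and for 7 of the 8 each AEG1_MYC mouse lay above each of the 9 other mice. How many of all genes tested show that order was not counted. Against the WT mice alone, AEG1_MYC mice were higher without overlap for 9.81% of all genes tested. Rhbg and Slc1a2, the ammonium and glutamate transporters, passed the test in AEG1_MYC against WT. Neither transgene alone moved any of the 8 past the threshold. The 8 genes together took 0.781%, 3.18% and 0.719% of the gene reads in AEG1_MYC replicates 1 to 3, against 0.139% to 0.381% in the other 9 libraries.

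The mice of a genotype differed among themselves. The highest mouse was 2.19 times (Lect2) to 5.18 times (Glul) the lowest among AEG1_MYC livers, 1.12 times (Slc1a2) to 3.24 times (Slc13a3) among MYC livers, 1.18 times (Gulo) to 2.80 times (Lhpp) among AEG1 livers, and 1.21 times (Rhbg) to 3.94 times (Slc13a3) among WT livers. WT replicate 1 was the highest WT mouse for 8 of 8 genes, and a MYC mouse was the lowest of all 12 for 7 of 8. These orders were not counted over all genes. In whole liver, a change in how many cells of a type there are and a change in RNA per cell cannot be told apart.

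**Figure D1:**
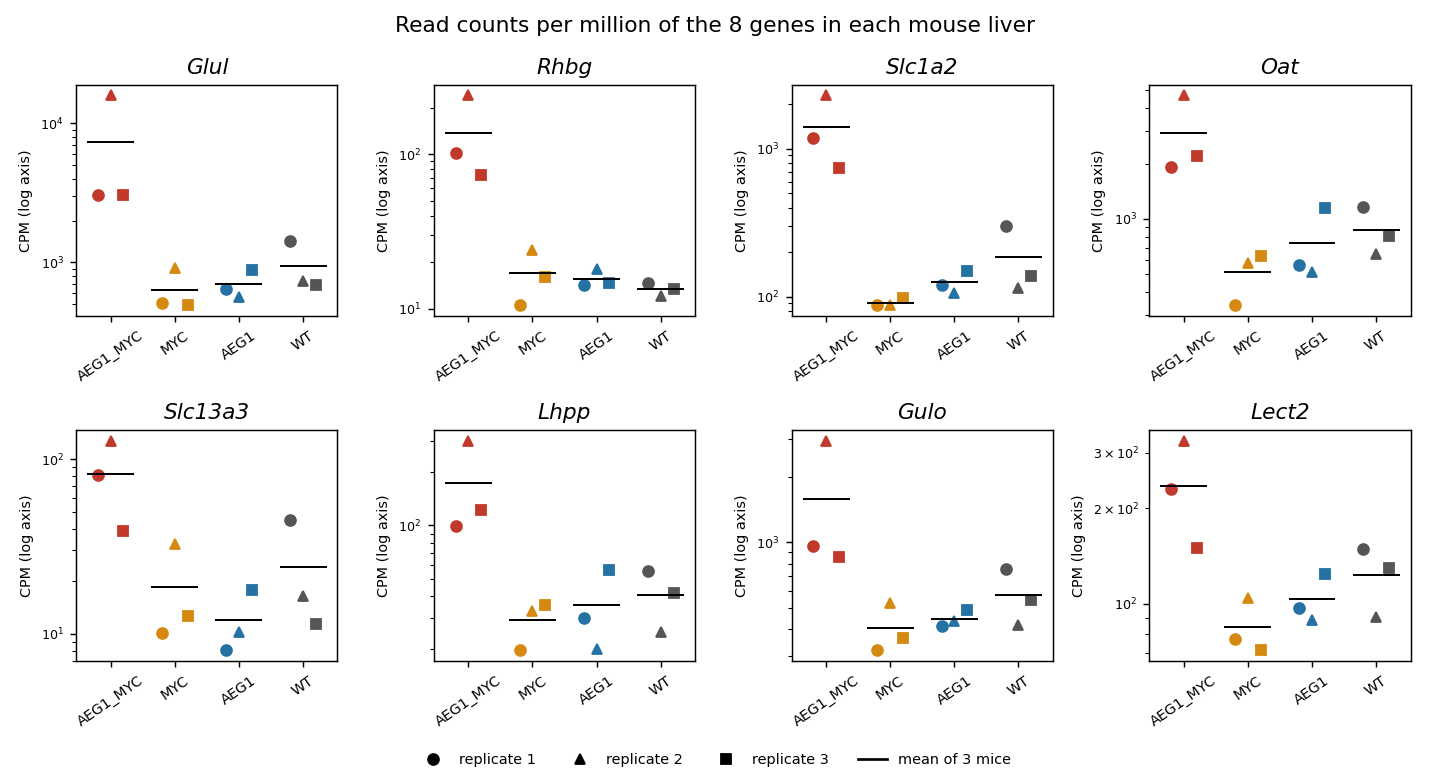
CPM of each gene in each mouse (log axis), by genotype, with AEG1_MYC at the left and WT at the right; marker shapes are replicates and lines are means of 3 mice. AEG1_MYC replicate 2 is the highest of the 12 mice for 8 of 8 genes (not counted over all genes), and for Slc13a3 the lowest AEG1_MYC mouse, at 38.9 CPM, lies below the highest WT mouse, at 44.6 CPM.

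Glul, glutamine synthetase, joins ammonium to glutamate. Its level was 3064, 15863 and 3070.5 CPM in the 3 AEG1_MYC livers, 507, 908 and 493 CPM in MYC livers, 643, 568 and 879 CPM in AEG1 livers, and 1427, 734 and 685 CPM in WT livers. All 3 AEG1_MYC mice lay above the other 9, while the 3 other genotypes overlapped each other. The means were 7333 ± 7388 CPM in AEG1_MYC and 949 ± 415 CPM in WT livers (SD, n = 3 each), so the spread within AEG1_MYC was as large as its mean. The log2 fold change in AEG1_MYC against WT was 2.95 ± 0.65 (SE, edgeR quasi-likelihood adjusted p = 0.0959), which missed the threshold of 0.05, and it was 1.69 (adjusted p = 0.156) without AEG1_MYC replicate 2. Glul alone took 1.89% of the gene reads in that library, against 0.313% and 0.305% in the other two AEG1_MYC livers and 0.0512% to 0.139% in the remaining 9.

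Rhbg, the Rhesus-family ammonium transporter of the pericentral membrane, had the highest log2 fold change of the 8 against WT. It stood at 101, 239 and 72.9 CPM in AEG1_MYC livers, 10.5, 24.1 and 16.1 CPM in MYC livers, 14.2, 18.0 and 14.7 CPM in AEG1 livers, and 14.6, 12.1 and 13.4 CPM in WT livers. The lowest AEG1_MYC mouse was far above the highest of the other 9, and the WT mice lay close together (13.4 ± 1.28 CPM, SD, n = 3) next to 138 ± 89.2 CPM in AEG1_MYC livers (n = 3). Rhbg rose by a log2 fold change of 3.37 ± 0.44 against WT (edgeR adjusted p = 0.0156). The call held without AEG1_MYC replicate 2 (2.70, adjusted p = 0.00864). It did not hold without WT replicate 1, 2 or 3, where the adjusted p was 0.0923, 0.141 and 0.0969 with log2 fold changes of 3.45, 3.30 and 3.38. Fitting the 6 compared libraries alone gave an adjusted p of 0.182, and leaving out AEG1_MYC replicates 1 and 2 gave 0.0627.

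Slc1a2, the glutamate transporter GLT-1, takes glutamate into the cell. Its level was 1185, 2292 and 742 CPM in AEG1_MYC livers, 88.0, 87.6 and 98.1 CPM in MYC livers, 119.8, 106 and 149.9 CPM in AEG1 livers, and 302, 114 and 138 CPM in WT livers. The AEG1_MYC mice lay above all others, and the MYC mice lay below all others. Slc1a2 rose by a log2 fold change of 2.93 ± 0.45 in AEG1_MYC against WT (edgeR adjusted p = 0.0334). The call was lost with an adjusted p of 0.0551 without AEG1_MYC replicate 2 (log2 fold change 2.38), of 0.195 and 0.149 without WT replicates 2 and 3, of 0.0766, 0.0772 and 0.0515 without AEG1 replicates 1 to 3, of 0.0662, 0.0662 and 0.0711 without MYC replicates 1 to 3, of 0.296 in the 6 compared libraries alone, of 0.109 by limma with quality weights, and of 0.339 without AEG1_MYC replicates 1 and 2. It held without WT replicate 1, the WT mouse with the highest level (3.50, adjusted p = 0.0280).

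Oat, ornithine aminotransferase, passes the amino group of ornithine to alpha-ketoglutarate. It stood at 1924, 4682 and 2186 CPM in AEG1_MYC livers, 341, 575 and 626 CPM in MYC livers, 560.3, 518 and 1149 CPM in AEG1 livers, and 1166, 644 and 807 CPM in WT livers. AEG1_MYC mice were separate from all others, and MYC mice were below all WT mice. The log2 fold change against WT was 1.75 ± 0.43 with an edgeR adjusted p of 0.122, and 1.24 without AEG1_MYC replicate 2.

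Slc13a3, the sodium-coupled dicarboxylate transporter, was the least separate of the 8. It had 80.9, 128 and 38.9 CPM in AEG1_MYC livers, 10.1, 32.8 and 12.6 CPM in MYC livers, 8.03, 10.3 and 17.8 CPM in AEG1 livers, and 44.6, 16.5 and 11.3 CPM in WT livers. AEG1_MYC replicate 3 lay below WT replicate 1, so these groups overlapped. The log2 fold change against WT was 1.77 ± 0.64 (edgeR adjusted p = 0.204), and 1.31 without AEG1_MYC replicate 2.

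Lhpp, the histidine phosphatase, lies near Oat on chromosome 7, with Nkx1-2 and Gm46021 between them in RefSeq. Its level was 99.5, 302 and 123 CPM in AEG1_MYC livers, 19.7, 32.6 and 35.5 CPM in MYC livers, 29.9, 19.99 and 55.9 CPM in AEG1 livers, and 55.5, 25.0 and 41.3 CPM in WT livers. Each AEG1_MYC mouse was above the other 9. The log2 fold change against WT was 2.11 ± 0.51 (edgeR adjusted p = 0.116), and 1.45 without AEG1_MYC replicate 2.

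Gulo, the vitamin C enzyme, had 959, 2943 and 860.5 CPM in AEG1_MYC livers, 319, 526 and 364 CPM in MYC livers, 413, 435 and 487 CPM in AEG1 livers, and 757, 416 and 542 CPM in WT livers. AEG1_MYC replicates 1 and 3 were only a little above the highest WT mouse. The log2 fold change against WT was 1.47 ± 0.44 (edgeR adjusted p = 0.161), and 0.67 without AEG1_MYC replicate 2. Leaving out that library thus moved the Gulo fold by over 1.5 times. It also lowered the log2 fold change of every other gene of the set, most for Glul (2.95 to 1.69).

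Lect2, the secreted protein, had 231, 328 and 149 CPM in AEG1_MYC livers, 77.5, 104 and 71.2 CPM in MYC livers, 96.8, 88.7 and 124 CPM in AEG1 livers, and 149, 90.9 and 129 CPM in WT livers. The lowest AEG1_MYC mouse and the highest WT mouse were nearly level, at 149.5 and 148.9 CPM. The log2 fold change against WT was 0.94 ± 0.28 (edgeR adjusted p = 0.165), the smallest of the 8, and 0.63 without AEG1_MYC replicate 2. Fbxl21 overlaps Lect2 in the annotation and had 24 to 135 reads per library (0.829 to 4.46 CPM). Without a stated strand setting, reads of the pair cannot be separated.

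**Figure D2:**
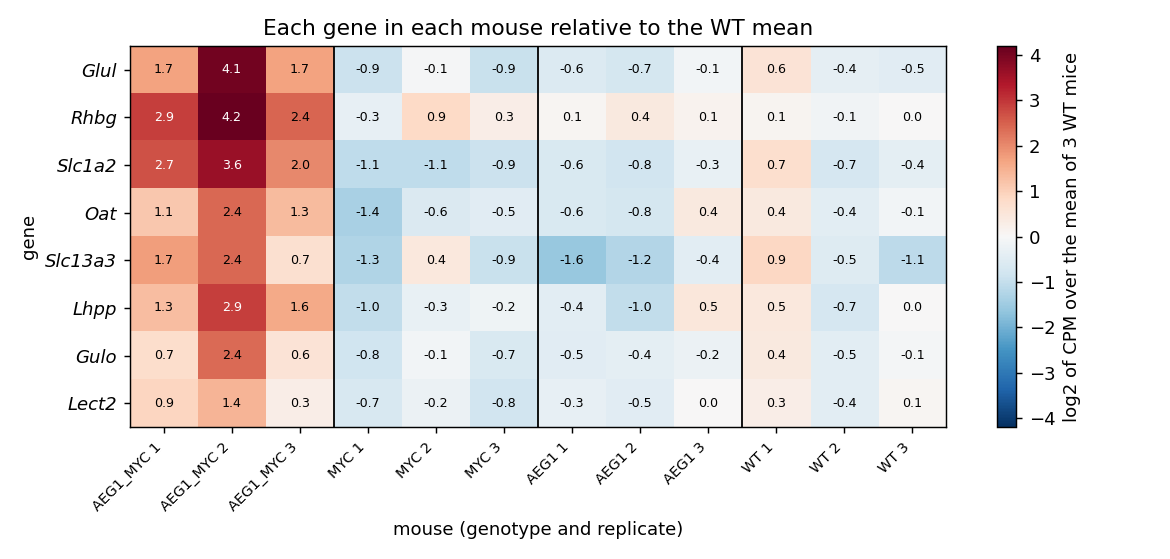
Level of each gene in each mouse as the log2 of its CPM over the mean of the 3 WT mice, with genotypes from AEG1_MYC at the left to WT at the right. AEG1_MYC replicate 2 reached 16.7 times the WT mean for Glul and 17.9 times for Rhbg, while AEG1_MYC replicate 3 reached 3.24 and 5.45 times.

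In AEG1_MYC against WT, 2 of the 8 genes were called higher and 0 lower, where 0.256% of all genes tested were called higher and 0.00731% lower. For 7 of 8 the groups did not overlap and AEG1_MYC was higher, next to 9.81% of all genes tested. With 3 mice against 3, an exact permutation test of 1 gene cannot go below p = 0.1. The median log2 fold change was 1.94 over the 8 genes (1.38 without AEG1_MYC replicate 2) and 0.01 over all genes tested. These are counts over genes picked as a pathway with earlier results of these data known, and no test was run on the set. The 95% interval of the log2 fold change excluded 0 for each gene before adjustment. By the same measure, an unadjusted edgeR p under 0.05, 9.66% of all genes tested were higher and 7.56% lower. The interval ran for Glul from 1.52 to 4.38, for Gulo from 0.51 to 2.44 and for Lect2 from 0.32 to 1.57. The size of the difference varied among the AEG1_MYC mice. Relative to the WT mean, AEG1_MYC replicate 2 was 2.67 times (Lect2) to 17.9 times (Rhbg) as high, replicate 1 was 1.68 times (Gulo) to 7.56 times (Rhbg), and replicate 3 was 1.22 times (Lect2) to 5.45 times (Rhbg).

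**Figure D3:**
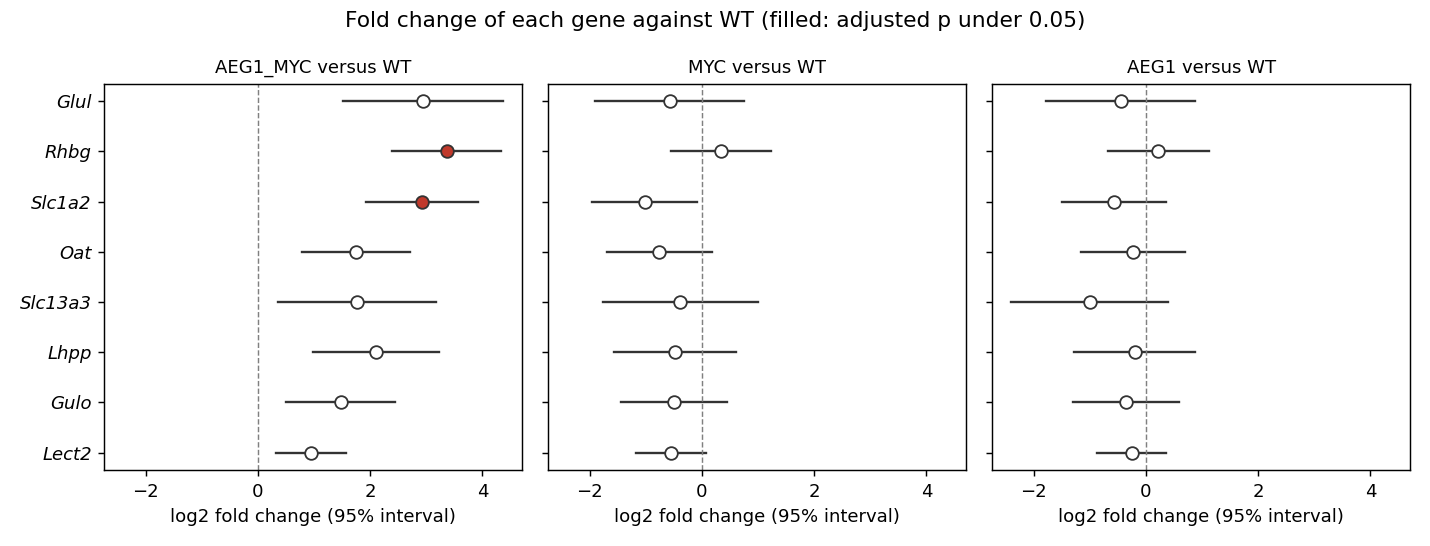
Log2 fold change of each gene against WT with its 95% interval, for AEG1_MYC, MYC and AEG1; filled points have an adjusted p under 0.05. Rhbg (3.37) and Slc1a2 (2.93) in AEG1_MYC are the filled points, and 7 of the 8 points lie below 0 for MYC and for AEG1.

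Neither transgene alone gave a call among the 8 genes, nor among all genes tested by edgeR (0 called in MYC against WT and 0 in AEG1 against WT). At an unadjusted p under 0.05, edgeR counted 252 genes higher (1.84%) and 223 lower (1.63%) in MYC, and 272 higher (1.99%) and 264 lower (1.93%) in AEG1. DESeq2 called 28 genes in MYC and 15 in AEG1, and limma called 0 in each. The 8 genes mostly lay below WT. Their median log2 fold change was -0.53 in MYC and -0.31 in AEG1, against 0.00 over all genes tested in both, and 7 of 8 were below 0 in each, Rhbg being the exception (0.34 ± 0.41 in MYC, 0.22 ± 0.41 in AEG1).

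These medians moved with single libraries. The MYC median ran from -0.80 without MYC replicate 2 to -0.20 without WT replicate 1, and the AEG1 median ran from -0.67 without AEG1 replicate 3 to -0.02 without WT replicate 1. Slc1a2 had the largest difference in MYC (-1.02 ± 0.42, edgeR adjusted p = 0.999, unadjusted p = 0.0355). MYC mice lay below all WT mice for Slc1a2 and Oat, 2 of 8 genes next to 6.09% of all genes tested, while AEG1 and WT mice overlapped for all 8, next to 5.53% of all genes with AEG1 mice below all WT mice. The 95% intervals of the log2 fold change were wide. For Glul they ran from -1.91 to 0.75 in MYC and from -1.77 to 0.88 in AEG1. The order of the genotype means was AEG1_MYC, WT, AEG1, MYC except for Rhbg (AEG1_MYC, MYC, AEG1, WT) and Slc13a3 (AEG1_MYC, WT, MYC, AEG1), and outside AEG1_MYC neighbours in these orders overlapped for every gene but Slc1a2, where MYC and AEG1 mice were separate.

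AEG1_MYC against MYC compares both transgenes with c-Myc alone. Myc itself was higher in AEG1_MYC livers (58.4 to 165 CPM) than in MYC livers (23.4 to 53.8 CPM). Added AEG-1 and a higher Myc level therefore cannot be told apart here. Slc1a2 rose by 3.95 ± 0.47 on the log2 scale (edgeR adjusted p = 0.0103) and Rhbg by 3.02 ± 0.43 (adjusted p = 0.0237), 2 of 8 genes next to 0.205% of all genes called higher. All 8 were higher without overlap, next to 9.64% of all genes. Glul (3.53 ± 0.66, adjusted p = 0.0740), Oat (2.51 ± 0.45, adjusted p = 0.0588) and Lect2 (1.49 ± 0.29, adjusted p = 0.0788) missed the threshold, as did Lhpp (2.58 ± 0.52), Slc13a3 (2.16 ± 0.64) and Gulo (1.98 ± 0.44). Leaving out MYC replicate 1, 2 or 3 ended both calls, with an adjusted p of 0.111, 0.0808 and 0.0964 for Slc1a2 and 0.157, 0.0674 and 0.156 for Rhbg. The Rhbg call also ended without WT replicate 1, 2 or 3 or AEG1 replicate 1, with an adjusted p of 0.0507, 0.0512, 0.0506 and 0.0509. Both ended in the 6 compared libraries alone (Slc1a2 0.0956, Rhbg 0.210) and without AEG1_MYC replicates 1 and 2 (0.103 and 0.138). Without AEG1_MYC replicate 2 both calls held (Slc1a2 3.40, adjusted p = 0.0122; Rhbg 2.36, adjusted p = 0.0169), while Glul was at 2.27, Oat at 1.9995, Lhpp at 1.93, Slc13a3 at 1.69, Lect2 at 1.18 and Gulo at 1.17.

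Adding c-Myc to AEG-1, AEG1_MYC against AEG1, gave a like set of values. Slc1a2 rose by 3.49 ± 0.46 (edgeR adjusted p = 0.0153) and Rhbg by 3.14 ± 0.43 (adjusted p = 0.0191), 2 of 8 next to 0.3% of all genes called higher and 0.0219% called lower. All 8 were higher without overlap, next to 9.6% of all genes. Glul came to 3.40 ± 0.66 (adjusted p = 0.0724), Slc13a3 to 2.77 ± 0.66, Lhpp to 2.31 ± 0.51, Oat to 1.98 ± 0.44, Gulo to 1.83 ± 0.44 and Lect2 to 1.20 ± 0.28. Both calls ended without AEG1 replicate 1, 2 or 3, with an adjusted p of 0.138, 0.126 and 0.0507 for Slc1a2 and 0.147, 0.124 and 0.0663 for Rhbg. Both ended in the 6 compared libraries alone (Slc1a2 0.161, Rhbg 0.209) and without AEG1_MYC replicates 1 and 2 (0.167 and 0.128). Without AEG1_MYC replicate 2 both held (Slc1a2 2.94, adjusted p = 0.0220; Rhbg 2.48, adjusted p = 0.0129), while Slc13a3 was at 2.31, Glul at 2.14, Lhpp at 1.65, Oat at 1.47, Gulo at 1.03 and Lect2 at 0.88. This comparison and those with WT and MYC share the 3 AEG1_MYC libraries, so their values are not independent of each other.

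Whether both transgenes together differed from the sum of each alone was tested as the interaction, the log2 difference of AEG1_MYC from MYC less that of AEG1 from WT. None of the 8 passed by edgeR after adjustment, where 3 of all genes (0.0219%) were called higher. Slc1a2 came closest with 4.51 ± 0.62 (adjusted p = 0.0521). Over its alternatives its adjusted p ran from 7.7e-11 by DESeq2 to 0.271 without AEG1_MYC replicates 1 and 2, and it passed by limma (0.0431), without the robust step (0.0461) and without AEG1_MYC replicate 3 (0.00975). Glul was at 3.97 ± 0.88 (adjusted p = 0.325) and Rhbg at 2.80 ± 0.58 (adjusted p = 0.260). Without AEG1_MYC replicate 2 the interaction was 3.96 for Slc1a2, 2.72 for Glul and 2.14 for Rhbg, and it lay between 1.43 (Lect2) and 2.69 (Slc13a3) for the other 5 genes. At an unadjusted edgeR p under 0.05 all 8 were higher, next to 5.67% of all genes. DESeq2 called 8 of 8 after adjustment, where alternatives to the reported fit called up to 152 of all genes. In the test of any difference among the 4 genotypes, Slc1a2 (edgeR adjusted p = 0.00430), Rhbg (0.00523) and Glul (0.0379) were called, 3 of 8 next to 0.519% of all genes. The Glul call ended without any 1 of the WT, AEG1 or MYC mice or AEG1_MYC replicate 2, with adjusted p from 0.0648 to 0.115. It also ended by limma with quality weights (adjusted p = 0.0994) and by edgeR with no filter on low counts (adjusted p = 0.0511). Oat (0.0634) and Lhpp (0.0743) came next.

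**Figure D4:**
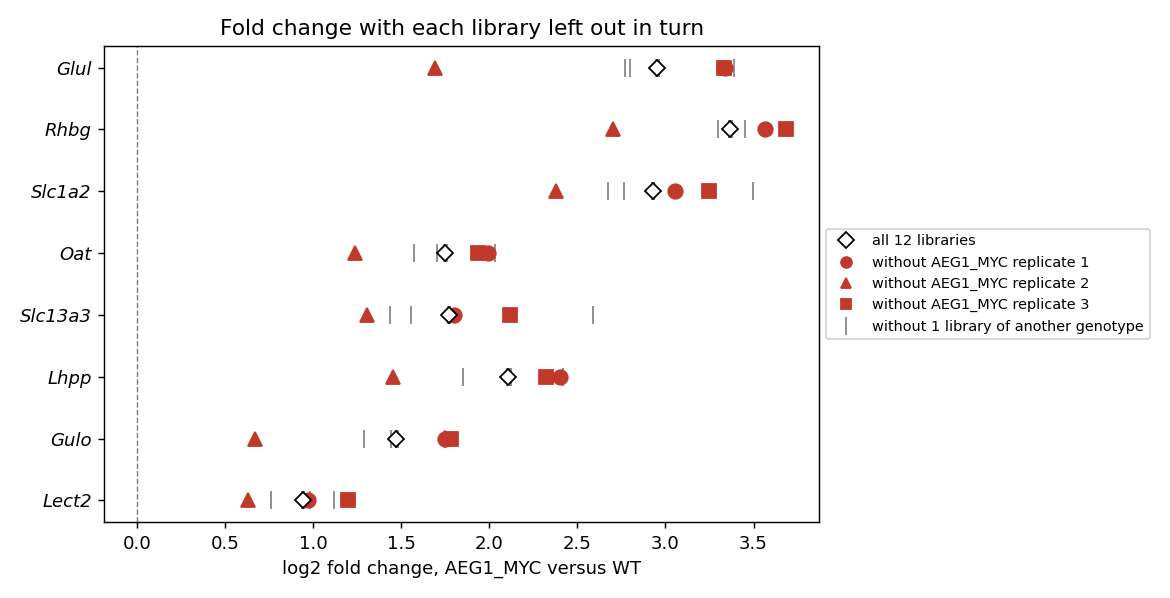
Log2 fold change of each gene in AEG1_MYC against WT with each of the 12 libraries left out in turn; the open diamond is the fit to all 12. All values stay above 0, and leaving out AEG1_MYC replicate 2 gives the lowest, from 0.63 for Lect2 to 2.70 for Rhbg.

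No other enzyme or carrier listed for the same paths passed the test in AEG1_MYC against WT. These lists were written with earlier results of these data known, and counts leave the 8 genes out. Of 13 other glutamine and glutamate enzymes, 0 were called in AEG1_MYC against WT, 5 had a positive log2 fold change and the median was -0.09 (0.19 without AEG1_MYC replicate 2). The lowest p values there belonged to Gmps (-0.43 ± 0.11, edgeR adjusted p = 0.135), a GMP synthetase that uses glutamine, and Gfpt1 (-0.77 ± 0.21, adjusted p = 0.141), which starts the hexosamine path. Of 11 tested ornithine and proline enzymes 0 were called and 7 were positive, with Pycr1 at 1.08 ± 0.40 and Prodh at 0.71 ± 0.29. Of 8 tested urea cycle genes 0 were called and 2 were positive with a median of -0.18 (0.08 without AEG1_MYC replicate 2), with Otc at -0.69 ± 0.42 and Cps1 at -0.78 ± 0.72.

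Among 13 other tested carriers of ammonium, glutamate and glutamine, 0 were called and 8 were positive with a median of 0.06 (0.26 without AEG1_MYC replicate 2, over 14 tested). Slc1a5, a glutamine exchanger, came nearest at 2.89 ± 0.52 (edgeR adjusted p = 0.0564; 2.02 without AEG1_MYC replicate 2), with 4.79, 17.7 and 5.36 CPM in AEG1_MYC livers, 2.18, 2.40 and 3.51 CPM in MYC livers, 1.56, 1.70 and 2.28 CPM in AEG1 livers, and 0.793, 1.23 and 1.75 CPM in WT livers. Slc7a5, which exchanges glutamine for large neutral amino acids, was at 1.70 ± 0.36 (adjusted p = 0.0921; 1.20 without AEG1_MYC replicate 2). In 7 other dicarboxylate and citrate carriers 0 were called and 6 were positive, with Slc13a5 at 1.57 and Slc25a21 at 0.57. In 7 other genes of vitamin C synthesis and transport 0 were called and 5 were positive, with Slc23a2 at 0.66 and Ugdh at 0.77. In 8 other genes of histidine phosphorylation and pyrophosphate breakdown 0 were called and 7 were positive, with Phpt1 at 0.46 and Pdxp at 2.40. Pdxp was high in a single mouse, with 2.51, 0.148 and 0.225 CPM in AEG1_MYC livers and 0.275, 0.115 and 0.128 CPM in WT livers.

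Other pericentral genes mostly lay above WT in AEG1_MYC livers. Of 22 such genes, 21 had a positive log2 fold change with a median of 0.70 (19 and 0.39 without AEG1_MYC replicate 2), and 1 was called higher, Nkd1, an inhibitor that Wnt signalling induces. Nkd1 had 59.9, 83.9 and 66.2 CPM in AEG1_MYC livers, 4.39, 5.27 and 4.32 CPM in MYC livers, 5.77, 5.68 and 5.72 CPM in AEG1 livers, and 7.14, 5.86 and 5.55 CPM in WT livers. All 3 AEG1_MYC mice lay far above the other 9. Nkd1 rose by 3.50 ± 0.16 (edgeR adjusted p = 3.4e-06; 3.35 without AEG1_MYC replicate 2, adjusted p = 4.9e-06) and passed in the interaction as well (4.02 ± 0.21, adjusted p = 2.0e-05). Sp5, a Wnt-induced transcription factor named after its value was seen, was also called against AEG1 (3.42 ± 0.54, edgeR adjusted p = 0.0333; 2.62 without AEG1_MYC replicate 2, adjusted p = 0.0388).

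Periportal genes were low in a single AEG1_MYC mouse. Of 20 tested, 0 were called by edgeR in AEG1_MYC against WT (3 lower at an unadjusted p under 0.05, where 7.56% of all genes were lower and 9.66% higher) and 4 were positive, with a median of -0.24. Without AEG1_MYC replicate 2 the median was 0.23 and 13 were positive. Pigr, the receptor that carries IgA, was at -0.82 ± 0.33 (-0.48 without AEG1_MYC replicate 2). Cdh1, the E-cadherin of periportal hepatocytes, was at -2.68 ± 0.99 (-2.50 without that library), with 3.14, 2.28 and 3.98 CPM in AEG1_MYC livers and 52.5, 2.87 and 4.83 CPM in WT livers. For Cdh1 the WT level was high in WT replicate 1 alone. The mean log2 level of the 20 periportal genes relative to WT was -0.03, -3.69 and 0.24 in AEG1_MYC replicates 1 to 3, while that of the 22 pericentral genes was 0.72, 1.66 and 0.65. In AEG1_MYC replicate 2, Gls2, the liver glutaminase, which frees ammonium from glutamine, was at 1.78 CPM, next to 238 to 522 CPM for the other 11 livers, and this gene and the next were picked after their values were seen. Cps1, the first urea cycle enzyme, was at 175 CPM there, against 3101 and 3436 CPM in AEG1_MYC replicates 1 and 3 and 2765 to 5120 CPM in WT livers.

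**Figure D5:**
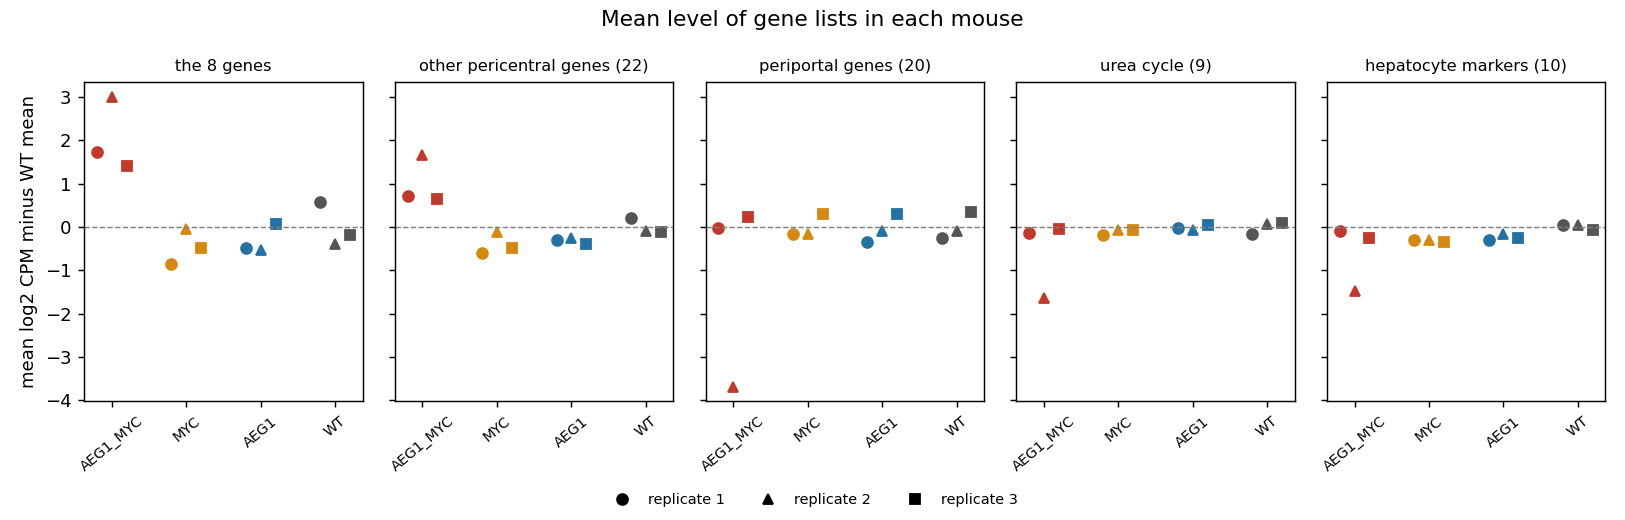
Mean log2 CPM of gene lists in each mouse minus the WT mean, by genotype from AEG1_MYC at the left to WT at the right; marker shapes are replicates. The periportal list is at -3.69 and the urea cycle list at -1.64 in AEG1_MYC replicate 2, the mouse in which the pericentral list is highest, at 1.66.

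Markers of other cell types were compared because whole liver holds them. Of the lists for endothelial, Kupffer, stellate, bile duct, lymphocyte and erythroid cells and for hepatocytes, 0 genes were called in AEG1_MYC against WT. At an unadjusted p under 0.05, where 9.66% of all genes were higher and 7.56% lower, 3 of 10 hepatocyte markers were lower, 2 endothelial markers were higher and 3 lower, 1 Kupffer marker was higher, 1 stellate marker was higher and 1 lower, 2 of 6 tested bile duct markers were lower, the 1 erythroid marker tested was lower, and 0 of 8 lymphocyte markers were called. Endothelial sums ran from 240 to 312 CPM in AEG1_MYC livers and from 227 to 296 CPM in WT livers. Kupffer sums were 861, 129 and 249 CPM in AEG1_MYC replicates 1 to 3, against 175 to 596 CPM in WT livers. Stellate sums ran from 252 to 285 CPM in AEG1_MYC livers and from 307 to 391.7 CPM in WT livers, without overlap, while the mean log2 level of the same genes relative to WT overlapped (-0.46 to 0.38 in AEG1_MYC livers and -0.38 to 0.27 in WT livers). Bile duct sums ran from 40.2 to 82.8 CPM in AEG1_MYC livers and from 60.2 to 103 CPM in WT livers. Lymphocyte sums were at most 6.13 CPM in AEG1_MYC livers and 4.94 CPM in WT livers. Erythroid sums ran from 80.9 to 195 CPM in AEG1_MYC livers and from 177 to 364 CPM in WT livers, with 3 of the 5 erythroid genes at 0 in each library. Hepatocyte marker sums were lower than in any WT liver in all 3 AEG1_MYC livers, and also in all MYC and all AEG1 livers, where 0 of the 8 genes were called higher. They were lowest in AEG1_MYC replicate 2, where the 8 genes were highest. Their part in the values of the 8 genes was not tested.

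Likeness between the 8 genes and all others was measured as the root mean square difference of log2 CPM, each gene centred on its own mean, over the 12 libraries and 12073 candidate genes outside the 8. It describes these 12 libraries of 4 genotypes, which differ in depth, and carries no test. Lgr5, a receptor of the Wnt pathway, lay nearest to Glul at 0.42, with Adamtsl4 at 0.47 and 5830403L16Rik at 0.48, where the median candidate was at 1.45. Fam83a (0.36) lay nearest to Rhbg, Nkd1 (0.44) to Slc1a2, Ccdc85b to both Oat (0.34) and Lhpp (0.33), D630003M21Rik (0.42) to Slc13a3, Slc7a5 (0.25) to Gulo and Ncald (0.18) to Lect2. Between the members, Oat and Lhpp were the nearest pair at 0.21, with 0 of the candidates nearer to either. Gulo and Lect2 followed at 0.31, with 7 candidates nearer to Gulo and 35 nearer to Lect2. Slc1a2 and Lect2 lay farthest apart at 0.995. The median candidate was at 0.88 for Gulo and 0.67 for Lect2, against 1.45 for Glul, so distances of different genes are not on a common scale.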

How the data were processed

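The deposited tables hold raw read counts per gene, 1 table per mouse, with 5 summary lines that were left out. CASAVA 1.8.2, TopHat2 2.0.7, HTSeq and the build mm9 are named in the submitters' processing notes. The HTSeq version, annotation and strand setting are not given there. Reads without a gene were 11.5% to 15.5% of uniquely placed reads. The summary line for alignments that were not unique made up 46.5% to 58.0% of all entries, so genes with near copies are uncertain. A read placed in several positions may enter that line more than once, so this is not a share of reads. The fit used edgeR 4.0.16 in R 4.3.3, with TMM scaling, filterByExpr, 1 coefficient per genotype over 12 libraries and two-sided quasi-likelihood tests (robust). Benjamini-Hochberg adjustment ran over 13684 genes, and calls had an adjusted p under 0.05. The code was tested on simulated data. Alternatives changed the scaling (RLE, upper quartile), the filter (none, or CPM of at least 1 in 3 libraries), the robust step, the tool (DESeq2 1.42.0, limma 3.58.1 with quality weights) and the libraries. Replicate numbers follow accession order. The 8 genes and all lists were chosen with earlier results of these data known. From each other list, up to 4 called genes are named, or else the 2 genes with the lowest p. Promoters came from RefSeq's GRCm38.p6 table.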

Additional observations from a re-analysis of the deposited data

How the results depend on the processing

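Of 1000 alternative values of the 48 log2 fold changes, 909 kept their direction and their side of the threshold, 46 moved past it, 41 fell short of it and 4 changed sign. All 8 genes stayed positive in AEG1_MYC against WT under every alternative run. The number of the 8 genes called depended on the tool and the libraries. In AEG1_MYC against WT it was 2, and 7 by DESeq2, 1 by limma, 0 in the compared libraries alone, 0 without AEG1_MYC replicates 1 and 2, and 0 to 7 with each library left out. Against MYC it was 2, and 8, 0 and 0 by DESeq2, in the compared libraries alone and without AEG1_MYC replicates 1 and 2, and 0 to 7 with each library left out. Against AEG1 it was 2, and 8, 0 and 0 in the same settings, and 0 to 8 with each library left out. The highest of each came without AEG1_MYC replicate 3. For the interaction it was 0, and 1 without the robust step, 1 by limma, 8 by DESeq2 and 0 to 1 with each library left out. Over any genotype it was 3, and 8 by DESeq2, 0 without AEG1_MYC replicates 1 and 2, and 2 to 7 with each library left out. In MYC and in AEG1 against WT it was 0 in every setting. Without AEG1_MYC replicates 1 and 2 the lone AEG1_MYC library was assumed to vary like the other groups. Changes of sign came with a library left out: Slc13a3 in MYC against WT ran from -1.09 to 0.43, and in AEG1 against WT Oat ran from -0.69 to 0.034 and Lhpp from -0.70 to 0.091. The cause was not tested. Genes called in all ranged from 2 to 687 in AEG1_MYC against WT (36 in the fit reported), 3 to 450 against MYC (28), 2 to 700 against AEG1 (44), 1 to 152 for the interaction (3) and 5 to 738 over any genotype (71). In settings that did not leave out 1 library, DESeq2 among them, genes called reached 652, 446 and 700 against WT, MYC and AEG1. The DESeq2 counts of the 8 genes stand beside those totals, and its own share of all genes is not given here. Other scalings moved the median of all genes by at most 0.03. The values of other lists without AEG1_MYC replicate 2 were chosen after the data were seen. No paired analysis was possible because the mouse numbers in the labels are not shared between genotypes. Of the 8 genes, Slc13a3 had the fewest reads in a library (212 in AEG1 replicate 2), so counting error was small for all 8 beside the spread between mice; with 3 mice per genotype that spread limits what can be seen.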
